A study of Mus musculus with 26 samples.

Results

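The genes of the proteasome were followed through 13 mouse cell lines of the germline reprogramming study. They were chosen as every array probe whose gene symbol begins with Psma, Psmb, Psmc, Psmd, Psme, Psmf or Psmg, which gave 67 of the 25697 probes on the array and 45 of the 16593 named genes. Of these, 61 probes and 43 genes passed a detection filter, among 10660 genes that could be tested. Psma1 and Psma6, both alpha subunits of the core ring, are each read by 1 probe that was detected on 0 of 26 arrays, so no level can be given for them. A pair of the 43 genes carry the prefix but encode no subunit, activator or assembly chaperone of the proteasome. They are Psmc3ip, a partner of the meiotic recombinases, and Psme3ip1, which interacts with the activator encoded by Psme3. Psma8, Psmb11, Psmd3, Psmf1 and Psmg4 were not analysed here.

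The lines fall into 6 groups: 1 fibroblast-derived iPSC line (Fib-iPSC), 1 fibroblast line, 4 iPSC lines made from germline stem cells, 4 germline-derived pluripotent lines (gPSC), 2 germline stem cell lines (GSC) and 1 embryonic stem cell line (ESC). All share the OG2 background, a mouse strain that carries a green fluorescent reporter under the control of Pou5f1 regulatory sequence. GSCs are the cultured counterpart of spermatogonial stem cells, and the title of the series asks whether reprogramming by transcription factors leaves a memory of the source cell. Total RNA of each line was hybridised to 2 arrays, which are technical repeats and were averaged. A p-value here therefore measures the spread between lines, and a group with 1 line has no spread of its own. In bulk RNA from a culture, fewer cells of a type and less RNA per cell cannot be told apart.

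The proteasome is the cell's main machine for degrading proteins tagged with ubiquitin. A barrel-shaped core of alpha and beta rings holds the proteolytic sites, and a regulatory particle with an ATPase base and a lid receives, deubiquitinates and unfolds the substrate. Interferon gamma induces alternative catalytic subunits (Psmb8, Psmb9 and Psmb10, the immunoproteasome) and the PA28 activator (Psme1 and Psme2), which shape the peptides shown on MHC class I. Testis and germ cells are known for their own proteasome forms, with the PA200 activator encoded by Psme4 among them.

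Of the 45 genes, 39 have a promoter window in RefSeq (GRCm38.p6), each 300 bases long with 250 bases before the annotated start and 50 after it. The windows of the 4 genes that were at least 2-fold lower in the iPSC and the gPSC lines than in the GSC lines are shown first, and that of Psmd14, which was higher in both, is shown as a contrast. Capitals mark a match on either strand to 1 of 3 motifs, GAAANNGAAA for the pair of half-sites read by interferon regulatory factors, TGACNNNGC for the antioxidant response element core and CCAAT for the box bound by NF-Y. The windows lie at chr8:105938343-105938642 on the minus strand (Psmb10), chr14:55578244-55578543 on the plus strand (Psme1), chr14:55591052-55591351 on the minus strand (Psme2), chr2:34870913-34871212 on the minus strand (Psmd5) and chr2:61711444-61711743 on the plus strand (Psmd14).
Psmb10: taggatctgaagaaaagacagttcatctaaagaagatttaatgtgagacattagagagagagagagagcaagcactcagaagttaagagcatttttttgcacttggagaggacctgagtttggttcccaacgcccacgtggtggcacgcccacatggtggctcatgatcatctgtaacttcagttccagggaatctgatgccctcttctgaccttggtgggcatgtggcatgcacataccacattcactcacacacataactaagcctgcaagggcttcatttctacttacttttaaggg
Psme1: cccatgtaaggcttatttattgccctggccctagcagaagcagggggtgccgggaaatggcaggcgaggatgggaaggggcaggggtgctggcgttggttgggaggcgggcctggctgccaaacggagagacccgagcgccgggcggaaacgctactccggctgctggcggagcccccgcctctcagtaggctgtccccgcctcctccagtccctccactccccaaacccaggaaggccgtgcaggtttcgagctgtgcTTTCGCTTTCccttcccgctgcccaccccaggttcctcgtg
Psme2: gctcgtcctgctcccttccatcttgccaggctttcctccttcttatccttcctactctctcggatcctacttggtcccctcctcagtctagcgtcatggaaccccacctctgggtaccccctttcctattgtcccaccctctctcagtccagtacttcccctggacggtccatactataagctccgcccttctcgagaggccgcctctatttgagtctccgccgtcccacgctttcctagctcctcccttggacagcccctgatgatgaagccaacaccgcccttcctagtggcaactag
Psmd5: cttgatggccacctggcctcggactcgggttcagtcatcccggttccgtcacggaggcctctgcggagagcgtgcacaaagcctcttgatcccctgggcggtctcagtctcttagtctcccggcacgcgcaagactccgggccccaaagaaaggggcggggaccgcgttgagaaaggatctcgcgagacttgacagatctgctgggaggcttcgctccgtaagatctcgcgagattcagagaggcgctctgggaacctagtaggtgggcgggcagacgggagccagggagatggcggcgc
Psmd14: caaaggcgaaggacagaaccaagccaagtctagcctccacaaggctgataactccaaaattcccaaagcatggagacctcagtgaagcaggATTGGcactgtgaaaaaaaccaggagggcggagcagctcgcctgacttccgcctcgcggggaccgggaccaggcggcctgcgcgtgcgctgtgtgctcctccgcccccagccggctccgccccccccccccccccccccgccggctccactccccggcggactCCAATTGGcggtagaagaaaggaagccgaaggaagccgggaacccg

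Psme1 held 1 match to GAAANNGAAA, on the minus strand just after the start, while the windows of Psmb10, Psme2 and Psmd5 held 0 matches to any of the 3 motifs. Psmd14 held 3 CCAAT boxes, of which 2 overlap just after the start. GAAANNGAAA occurred in 3.44% of all 32851 promoter windows and in 4 of the 39 proteasome windows, those of Psmb3, Psmd4, Psmd9 and Psme1. TGACNNNGC was in 12.4% of all windows and in 6 of the 39, and CCAAT in 37.4% of all windows and in 14 of the 39. These matches describe the letters in the window and say nothing about occupancy. Psme1 and Psme2 lie near each other on chromosome 14, and Psmb8 and Psmb9 on chromosome 17, whereas Psmb10 is on chromosome 8.

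The labels were set against markers of the cell types. The summed log2 level of 7 pluripotency markers was 73.8 in the Fib-iPSC line, 31.5 in fibroblasts, 75.5 to 78.4 in the iPSC lines, 73.7 to 77.7 in the gPSC lines, 44.8 and 47.2 in the GSC lines and 77.6 in the ESC line. For 7 of 8 listed germline markers the sum was 37.8 to 46.5 in the iPSC lines, with the highest in iPSC 3. It was 36.7 to 42.0 in the gPSC lines, with the highest in gPSC 3, and 59.5 and 60.4 in the GSC lines. Etv5 alone of these markers ran the other way, with means of 7.81 in iPSC and 7.92 in gPSC, against 5.79 in GSC. The 8 fibroblast markers summed to 70.0 in fibroblasts and to between 39.1 (iPSC 3) and 70.5 (gPSC 1) in the other lines, with 59.0 in gPSC 4 and 57.8 in the Fib-iPSC line. The markers did not move together: in gPSC 1, Dcn (11.68), Lum (11.21) and Pdgfra (8.76) exceeded the fibroblast line (7.30, 5.21 and 7.98). Col1a1 (9.09), Col1a2 (6.27), Col3a1 (9.59), Thy1 (9.61) and Postn (4.26) were below it (12.23, 9.60, 10.37, 11.80 and 5.47). Of 8 listed immune markers 3 could be tested, and Ptprc and Itgam were detected on 0 arrays. Median intensity was 89.2 to 103 on all arrays except the 2 of fibroblasts (134 and 143), and the a arrays of the iPSC lines were dimmer (89.2 to 91.0) than the a arrays of the other lines with fibroblasts set aside (100.1 to 102.9).

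Psmb10, Psme1, Psme2 and Psmd5 were at least 2-fold lower in the iPSC and in the gPSC lines than in the GSC lines, and Psmd14, Psmd8, Psme4 and Psma3 were higher in both by smaller amounts. Of the 43 genes, 6 were higher and 14 lower in iPSC than in GSC at an adjusted p under 0.05 (limma, Benjamini-Hochberg over all genes). This is 14.0% and 32.6% of the genes, against 19.5% higher and 24.6% lower among all 10660 genes. In gPSC against GSC, 5 were higher and 12 lower (11.6% and 27.9%), against 17.9% and 24.4% of all genes. The 2-fold mark was passed by 4 genes in either comparison, or 9.3%, all of them lower, against 22.8% of all genes for iPSC and 21.6% for gPSC. Both comparisons use the same 2 GSC lines, so their values are given side by side and are not independent. The lines of the 2 groups did not overlap for 25 of the 43 genes in iPSC and for 28 in gPSC, where 63.2% and 60.3% of all genes had no overlap.

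The median log2 difference of the 43 genes was -0.30 in iPSC minus GSC, against -0.02 over all genes, and -0.07 in gPSC minus GSC, against 0.01 over all genes. Most changes were small: the median size of the difference, without its sign, was 0.40 for the 43 genes in both comparisons, against 0.49 (iPSC) and 0.48 (gPSC) over all genes. The counts rest in part on line GSC 1, without which 11 genes were called in iPSC and 9 in gPSC. The calls lost without it were Psma2, Psma3, Psmb10, Psmc3ip, Psmc6, Psmd2, Psmd13, Psme3 and Psme4 in iPSC, and Psma3, Psma5, Psmb10, Psmd1, Psmd2, Psmd8, Psme3 and Psme4 in gPSC. Without GSC 2 there were 16 calls in iPSC and 12 in gPSC. On the b arrays alone, which are of like brightness in all groups other than fibroblast, 17 genes were called in iPSC and 15 in gPSC.

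**Figure D1:**
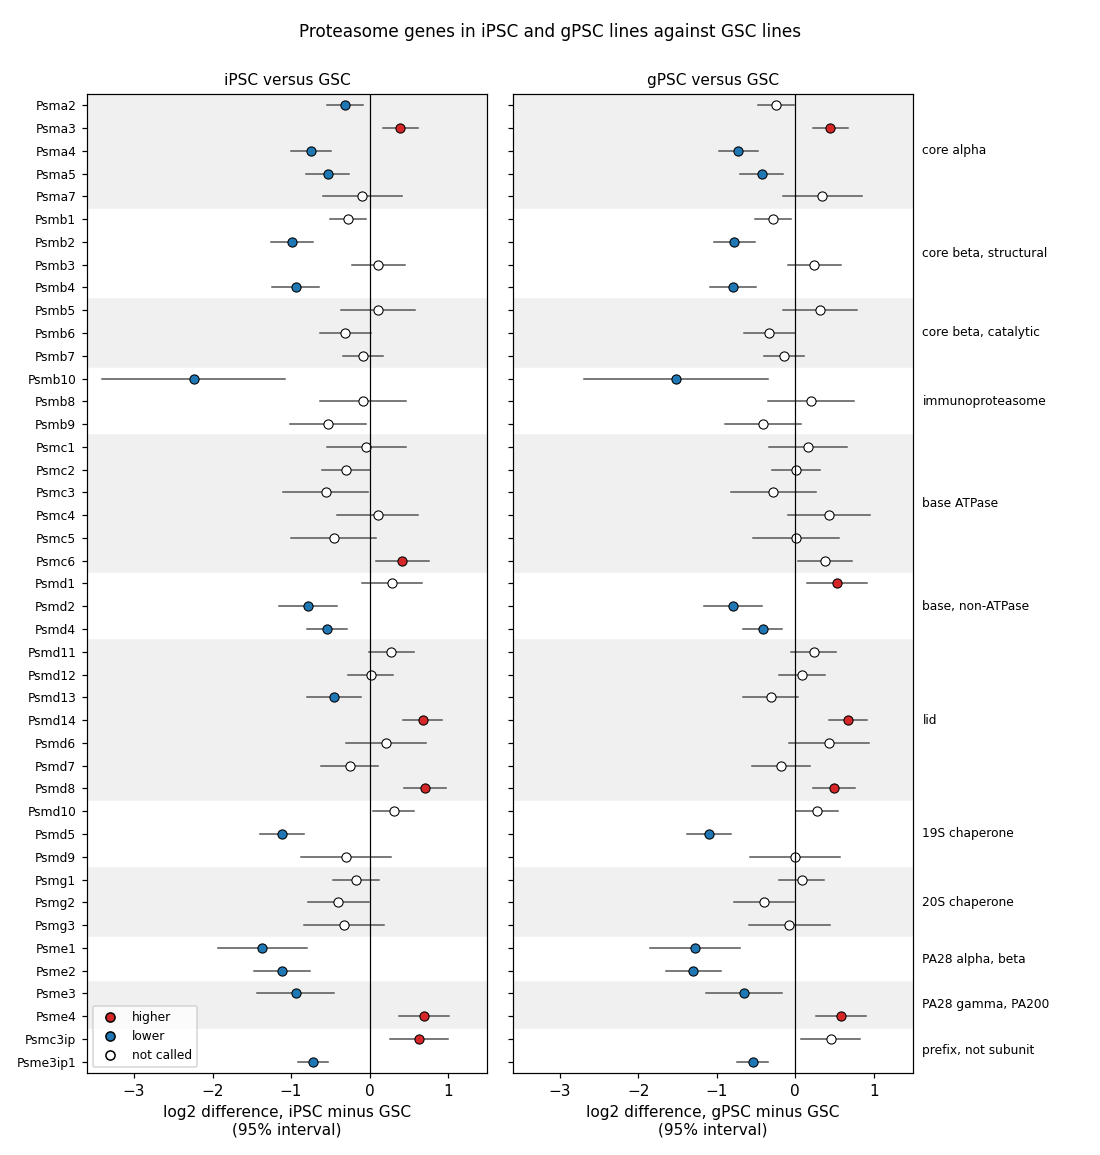
Log2 difference of each of the 43 genes in iPSC minus GSC (left) and gPSC minus GSC (right), with 95% intervals from limma, grouped by role; filled points passed an adjusted p under 0.05 (red higher, blue lower). Psmb10, Psme1, Psme2 and Psmd5 lie at or beyond -1.10 in both panels, while the catalytic Psmb5, Psmb6 and Psmb7 have open points.

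Of the 3 immunoproteasome genes, Psmb10 alone was called, and it was lower in both comparisons, as were 24.6% (iPSC) and 24.4% (gPSC) of all genes. Psmb10, which replaces Psmb7 in the immune form, had log2 levels of 8.04, 8.80, 6.995 and 8.09 in the iPSC lines and 9.20, 8.52, 7.83 and 9.26 in the gPSC lines, against 10.58 and 9.87 in the GSC lines. Every iPSC and gPSC line lay below both GSC lines. The difference was -2.24 ± 0.52 (SE) in iPSC, a 4.73-fold lower level (adjusted p = 0.00659), and -1.52 ± 0.52 in gPSC, 2.87-fold lower (adjusted p = 0.0406). Without GSC 1 neither call held, with adjusted p = 0.0749 in iPSC and 0.26 in gPSC. The gPSC call also ended without GSC 2, iPSC 1, iPSC 4, gPSC 2 or gPSC 3, each left out alone, and when the detection filter was dropped.

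Psmb9, which replaces Psmb6, was at 5.06 ± 0.28 in iPSC (SD, n = 4) and 5.18 ± 0.28 in gPSC (n = 4), against 5.59 ± 0.13 in GSC (n = 2). Its difference was -0.53 in iPSC (95% interval -1.01 to -0.04, adjusted p = 0.0748) and -0.41 in gPSC (-0.89 to 0.08, adjusted p = 0.162), so no call was made although the lines of iPSC and GSC did not overlap. Psmb8, which replaces Psmb5, was close to background in most lines, with the highest levels in gPSC 1 (5.38), gPSC 4 (5.01) and the Fib-iPSC line (5.01, detected on 2 of 2 arrays). It was detected on 1 of 8 iPSC, 4 of 8 gPSC and 2 of 4 GSC arrays, at mean levels of 4.55, 4.84 and 4.64, around the lowest detected signal (median 4.63). A change in Psmb8 between these groups was not detectable at this signal. The 3 immune cell markers that could be tested summed to 20.1 to 21.3 in the iPSC and gPSC lines and to 13.8 in both GSC lines. That gap was nearly all Laptm5, at 11.16 in iPSC and 10.83 in gPSC and detected on 0 of 4 GSC arrays. Cd52 ran the other way (4.65 in iPSC and 4.43 in gPSC, against 4.9992 in GSC). Ptprc and Itgam were detected on 0 arrays, and probes silent in every line cannot show whether immune cells were present.

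The constitutive catalytic subunits, which the immune ones replace, showed no called difference in iPSC or gPSC against GSC. Psmb5, with chymotrypsin-like activity, averaged 8.04 ± 0.25 in iPSC and 8.25 ± 0.29 in gPSC, against 7.93 ± 0.13 in GSC, and its intervals ran from -0.37 to 0.57 (iPSC) and from -0.16 to 0.78 (gPSC). For Psmb6, with caspase-like activity, the values were 11.56 ± 0.21 and 11.54 ± 0.11, against 11.87 ± 0.07 in GSC, with differences of -0.31 (-0.64 to 0.01) and -0.33 (-0.65 to -0.01) and adjusted p of 0.11 and 0.0952. For Psmb7, with trypsin-like activity, they were 11.35 ± 0.13 and 11.29 ± 0.07, against 11.44 ± 0.04 in GSC, with differences of -0.09 and -0.15. Further probes of Psmb7 did not agree in sign: 1 gave -0.20 and -0.18, and another 0.40 and 0.41. The plot of immune and constitutive subunits sets the 3 pairs above each other.

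**Figure D2:**
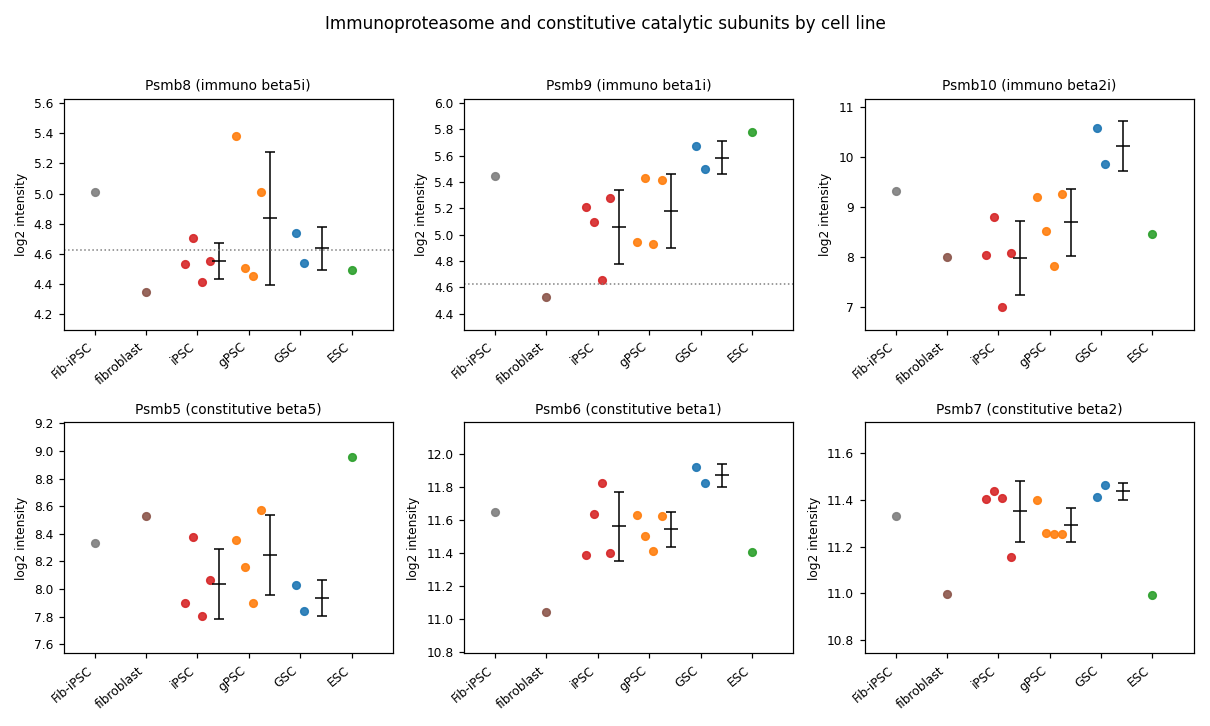
Log2 intensity of the 3 immunoproteasome subunits (top) and the constitutive subunits each replaces (bottom); a point is a line (mean of its arrays), the bar beside a group of more than 1 line is its mean ± SD, and the dotted line is the median lowest detected signal (4.63). Psmb10 is highest in the 2 GSC lines and spans 6.995 to 9.26 over the iPSC and gPSC lines, while Psmb8 sits near the dotted line in most groups.

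All 4 activator genes were called in both comparisons, 3 of them lower and Psme4 higher. Among all genes, 24.6% were called lower and 19.5% higher in iPSC, and 24.4% and 17.9% in gPSC. Psme1, the alpha subunit of PA28, had levels of 9.13, 9.80, 9.97 and 10.0003 in iPSC and 9.73, 9.67, 9.75 and 10.10 in gPSC, against 11.30 and 10.87 in GSC. The groups did not overlap, and the difference was -1.37 ± 0.25 in iPSC (adjusted p = 0.00201) and -1.28 ± 0.25 in gPSC (adjusted p = 0.00297). Psme2, the beta subunit that assembles with it, had 7.48, 7.54, 7.43 and 7.47 in iPSC and 7.58, 7.27, 6.97 and 7.37 in gPSC, against 8.69 and 8.50 in GSC. Its 4 iPSC lines lay within a narrow band, and the difference was -1.12 ± 0.16 in iPSC (adjusted p = 0.000399) and -1.30 ± 0.16 in gPSC (adjusted p = 0.000174).

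Both PA28 calls held in each of the 2 comparisons under every alternative and with any line left out. Psme3 encodes PA28 gamma, a nuclear activator that works without ubiquitin. It averaged 9.20 ± 0.28 in iPSC and 9.49 ± 0.29 in gPSC, against 10.14 ± 0.07 in GSC, which is -0.94 ± 0.22 (adjusted p = 0.0062) and -0.65 ± 0.22 (adjusted p = 0.0355). Without GSC 1 the adjusted p of Psme3 was 0.0547 in iPSC, and in gPSC the call ended under 3 alternatives and without any 1 of 5 lines, with adjusted p up to 0.176. Psme3ip1, whose product binds PA28 gamma, was also lower, by -0.72 ± 0.09 in iPSC (adjusted p = 0.000181) and -0.54 ± 0.09 in gPSC (adjusted p = 0.000937).

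Psme4 went the other way. It encodes PA200, an activator known in mouse spermatogenesis for the removal of acetylated histones. Its levels were 10.95, 10.88, 11.01 and 10.98 in iPSC and 10.59, 11.03, 10.94 and 10.84 in gPSC, against 10.12 and 10.41 in GSC. The lowest pluripotent line, gPSC 1, still lay above the higher GSC line. The difference was 0.69 ± 0.14 in iPSC (adjusted p = 0.00349) and 0.58 ± 0.14 in gPSC (adjusted p = 0.00876). Without GSC 1 it was 0.55 and 0.44, with adjusted p of 0.0509 and 0.107, and the gPSC call also ended with the mean of the detected probes of the gene (0.40, adjusted p = 0.0509).

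**Figure D3:**
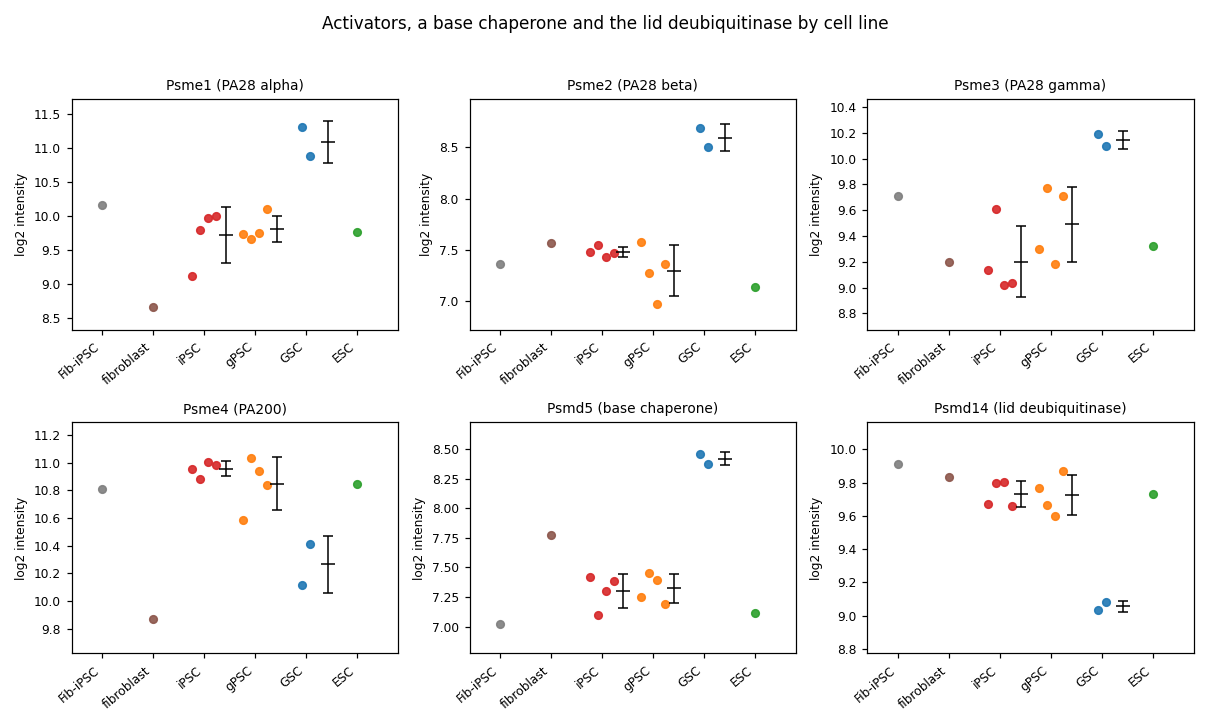
Log2 intensity of the 4 activator genes, the base chaperone Psmd5 and the lid deubiquitinase Psmd14 in each line (points, mean of the arrays of a line), with the mean ± SD of groups of more than 1 line. Psme1, Psme2, Psme3 and Psmd5 are highest in GSC, and Psme4 and Psmd14 are lower in both GSC lines than in any iPSC or gPSC line.

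Among the 12 constitutive core genes tested, 1 was higher and 5 lower in iPSC, where 19.5% and 24.6% of all genes were. In gPSC 1 was higher and 4 lower, where 17.9% and 24.4% of all genes were. The structural beta subunit Psmb2 had levels of 11.39, 11.60, 11.24 and 11.42 in iPSC and 11.58, 11.67, 11.55 and 11.72 in gPSC, against 12.40 and 12.40 in GSC. The difference was -0.99 ± 0.12 in iPSC (adjusted p = 0.000157) and -0.77 ± 0.12 in gPSC (adjusted p = 0.000681). Psmb4, another structural beta subunit, had 12.21, 12.47, 12.31 and 12.26 in iPSC and 12.64, 12.44, 12.24 and 12.53 in gPSC, against 13.20 and 13.31 in GSC. It differed by -0.94 ± 0.13 and -0.79 ± 0.13 (adjusted p = 0.000398 and 0.00111), again with no overlap between the groups.

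The other structural beta genes were not called: Psmb3 had the smallest difference in iPSC (0.11, against 0.25 in gPSC), and Psmb1 differed by -0.27 and -0.28. In the alpha ring, Psma4 was lower by -0.75 ± 0.11 in iPSC (adjusted p = 0.000604) and -0.72 ± 0.11 in gPSC (adjusted p = 0.000749). Psma5 differed by -0.53 in iPSC and -0.43 in gPSC, both called, the gPSC call ending under 2 alternatives and without either GSC line. Psma2 was called lower only in the iPSC comparison, at -0.31, with -0.25 in gPSC (adjusted p = 0.0785), and iPSC minus gPSC was -0.07 (95% interval -0.25 to 0.12). The Psma2 call ended under 4 of 10 alternatives and without any 1 of 5 lines, with adjusted p up to 0.146. Psma3 was the one core gene called higher, with 12.31 ± 0.01 in iPSC and 12.36 ± 0.10 in gPSC, against 11.92 ± 0.08 in GSC, or 0.39 and 0.45. Psma7 had the smallest alpha difference in iPSC (-0.09), and 0.35 in gPSC, with no call.

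Of the 16 regulatory particle genes, 3 were higher and 3 lower in iPSC, against 19.5% and 24.6% of all genes, and 3 were higher and 2 lower in gPSC, against 17.9% and 24.4%. Of the 6 ATPases of the base, which form the ring that unfolds substrates, 5 were not called in iPSC and 6 were not called in gPSC. Psmc6 was called higher in iPSC at 0.42 (adjusted p = 0.048) and was at 0.38 in gPSC (adjusted p = 0.0695); its iPSC call ended under 6 of 10 alternatives. Psmc3 had the largest ATPase difference in iPSC, -0.56 (adjusted p = 0.0883), and Psmc1 the smallest, -0.04. The non-ATPase base gene Psmd2, a scaffold that docks ubiquitin receptors, was lower by -0.79 ± 0.17 in both comparisons (adjusted p = 0.00409 and 0.00404). Without background correction the difference of Psmd2 was -0.52 in both, and both calls held there. Psmd4, itself a ubiquitin receptor, was lower by -0.54 in iPSC and -0.42 in gPSC. Both Psmd4 calls ended on the b arrays alone, and the gPSC one also with the authors' processed values, with the array letter as a block and without GSC 2 (adjusted p = 0.129). Its partner in the base, Psmd1, was higher in gPSC (0.53, adjusted p = 0.0323) and at 0.29 in iPSC (adjusted p = 0.204). The Psmd1 call ended on the b arrays alone, with the line number as a block and without any 1 of 5 lines.

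In the lid, Psmd8 and Psmd14 were higher in both comparisons. Psmd14, the metalloprotease that strips ubiquitin chains from a substrate, had levels of 9.67, 9.80, 9.80 and 9.66 in iPSC and 9.77, 9.67, 9.60 and 9.87 in gPSC, against 9.03 and 9.08 in GSC. The groups were well apart, and the difference was 0.68 ± 0.11 in iPSC (adjusted p = 0.000926) and 0.67 ± 0.11 in gPSC (adjusted p = 0.00101). On the b arrays alone it was 0.39 in iPSC and 0.52 in gPSC, and both calls held. Psmd8, a lid subunit, differed by 0.71 ± 0.12 in iPSC (adjusted p = 0.00111) and 0.50 ± 0.12 in gPSC (adjusted p = 0.00777), the gPSC call ending on the b arrays alone (0.36) and without GSC 1. Psmd13 was lower in iPSC (-0.45, adjusted p = 0.0382), with -0.31 in gPSC (adjusted p = 0.131), its iPSC call ending under 3 of 10 alternatives and without any 1 of 6 lines, and Psmd12 had the smallest lid difference in iPSC (0.01).

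Of the 6 chaperones that build the particle, 1 was called, lower in both comparisons, as were 24.6% (iPSC) and 24.4% (gPSC) of all genes. Psmd5, which holds ATPase subunits during assembly of the base, had levels of 7.42, 7.10, 7.30 and 7.39 in iPSC and 7.25, 7.45, 7.40 and 7.19 in gPSC, against 8.46 and 8.38 in GSC. It differed by -1.12 ± 0.13 in iPSC (adjusted p = 0.000118) and -1.10 ± 0.13 in gPSC (adjusted p = 0.000135), and both calls held in every alternative and with any line left out. The other base chaperones Psmd9 (-0.30 in iPSC) and Psmd10 (0.31 in iPSC) were not called. The core chaperones Psmg1, Psmg2 and Psmg3 were not called either, with differences between -0.40 (Psmg2) and -0.17 (Psmg1) in iPSC. Psmc3ip, which acts in meiotic recombination and not in the proteasome, was higher in iPSC by 0.63 ± 0.17 (adjusted p = 0.0122) and at 0.45 in gPSC (adjusted p = 0.0534).

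The iPSC and gPSC lines were compared directly to ask whether the route to pluripotency left a difference. None of the 43 genes was called by limma, against 0.00938% of all genes, and none was called under any alternative or with any line left out. At an unadjusted p under 0.05 there were 6 genes (14.0%, against 7.79% of all genes), Psmc2, Psmc5, Psma7, Psme3ip1, Psmg1 and Psmb2, all lower in iPSC. In this comparison 31 of the 43 differences were below 0, with a median of -0.12 against 0.01 over all genes. A single line, iPSC 3, which had the highest summed germline markers of the iPSC lines (46.5), was the lowest of the 8 for 20 of the 43 genes. The a arrays of the iPSC lines were also dimmer (89.2 to 91.0) than those of the gPSC lines (100.3 to 102.9). The part of either in this shift was not tested. The lowest value belonged to Psmb10, at -0.72, followed by Psmc5 at -0.47 (95% interval -0.91 to -0.02, adjusted p = 0.627). For Psma7 the levels were 9.88, 10.60, 10.58 and 10.69 in iPSC, against 10.81, 10.92, 10.71 and 11.09 in gPSC, with no overlap, although iPSC 1 was far below the other 3 iPSC lines.

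Against the ESC line, limma called 0 of the 43 genes in iPSC and 0 in gPSC, where 0.263% and 0.281% of all genes were called. At an unadjusted p under 0.05 there were 4 genes in iPSC (Psmb5, Psmb7, Psmb9 and Psmd8) and 2 in gPSC (Psmb5 and Psmd8), or 9.3% and 4.65% of the genes, against 5.45% and 5.82% of all genes. Psmd8 came closest, with levels of 10.4999, 10.51, 10.82 and 10.65 in iPSC and 10.44, 10.42, 10.35 and 10.44 in gPSC, against 9.71 in the ESC line. All 8 lines lay above it, and the difference was 0.91 ± 0.15 in iPSC (adjusted p = 0.0616) and 0.70 ± 0.15 in gPSC (adjusted p = 0.218). Psmd8 passed the threshold in iPSC under 4 alternatives, with adjusted p of 0.0285 to 0.0449. Psmb5 ran the other way, at -0.92 in iPSC (adjusted p = 0.581) and -0.71 in gPSC (adjusted p = 0.774), below an ESC level of 8.96. With 1 ESC line, a feature of that line cannot be told apart from a feature of ESCs.

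The GSC lines were also set against the ESC line. Of the 43 genes, 9 were higher (20.9%, against 16.4% of all genes) and 4 lower (9.3%, against 13.4%), and 4 also passed the 2-fold mark (9.3%, against 20.5%). Higher were Psme2 (1.46 ± 0.22), Psme1 (1.33 ± 0.36), Psmd5 (1.30 ± 0.18), Psmd2, Psmb4, Psmb2, Psma4, Psmd4 and Psme3ip1, with adjusted p from 0.00082 (Psmd5) to 0.0232 (Psmd4). Lower were Psmb5 (-1.02 ± 0.30, adjusted p = 0.0286), Psmd1, Psmd14 and Psma3. Psmb10 differed by 1.76 but with a wide interval, 0.11 to 3.42, and was not called (adjusted p = 0.104). The same 2 GSC lines enter here as above, so these values are no separate check of the earlier ones. Without GSC 1 the calls of Psme1, Psmd2, Psmb5, Psmd1 and Psma3 were lost. A fit to the GSC and ESC lines alone takes its spread from the 2 GSC lines only. Its count of calls is given only among the alternatives and is not relied on.

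Among the 8 iPSC and gPSC lines the median range of a proteasome gene between lines was 0.53 on the log2 scale, against 0.72 over all genes. Of the 43 genes, 14 had a range above that of the median gene. Psmb10 had the widest, 2.26, which is larger than that of 95.3% of genes, from 6.995 in iPSC 3 to 9.26 in gPSC 4. The lines with the highest Psmb10, gPSC 1 (9.20) and gPSC 4 (9.26), had summed fibroblast markers of 70.5 and 59.0, and iPSC 3 with the lowest had 39.1; the part of such cells in the Psmb10 level was not tested. The Fib-iPSC line had 9.33 for Psmb10 and a marker sum of 57.8, while the fibroblast line itself had 8.01 and 70.0. Next in range were Psma7 (1.20), Psmd9 (1.02) and Psmc5 (1.00). Of the 43 genes, 20 had their lowest value of the 8 lines in iPSC 3 and 14 their highest in gPSC 4. Over all 10660 genes, iPSC 3 was lowest for 2239 and gPSC 4 highest for 1296, and gPSC 1, lowest for 2660 of them, was lowest for 5 of the 43.

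In 10 of the 43 genes (23.3%) the 3 highest of these 8 lines were gPSC 1, gPSC 4 and iPSC 2, as they were in 9.62% of all genes, a pattern picked out after the values were seen. They were Psma4, Psmb4, Psmb5, Psmb8, Psmb10 and Psmd12 and, of the 6 ATPase genes, Psmc1, Psmc3, Psmc4 and Psmc5. Psmc5 was at 9.90, 10.57, 9.78 and 9.87 in iPSC and 10.78, 10.36, 10.16 and 10.68 in gPSC, with gPSC 1, gPSC 4 and iPSC 2 highest. Psmc4 had 10.89, 11.44, 10.83 and 10.67 in iPSC and 11.45, 11.25, 10.91 and 11.53 in gPSC, with gPSC 4, gPSC 1 and iPSC 2 highest. The mean of the 6 ATPases was 10.06 in iPSC 2, 10.05 in gPSC 1 and 10.17 in gPSC 4, against 9.51 to 9.90 in the other 5 lines. These are descriptions of single lines and carry no test.

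**Figure D4:**
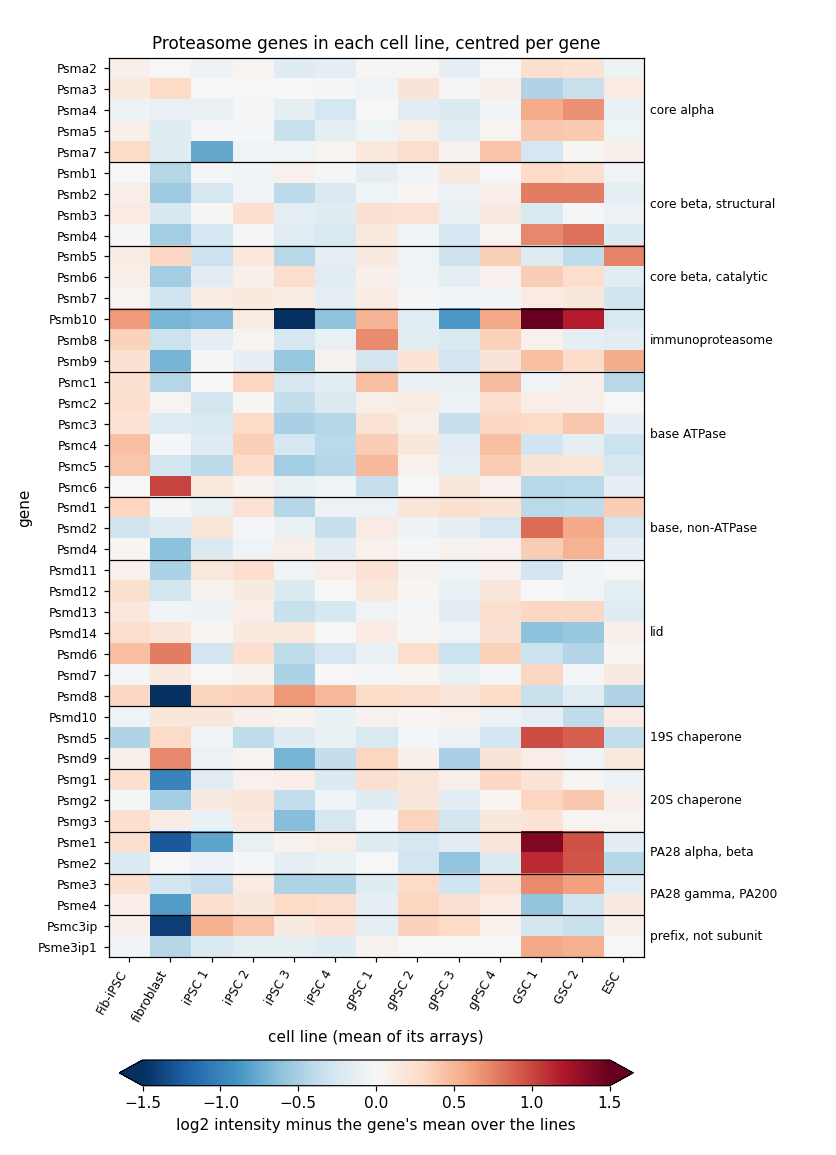
Log2 intensity of each of the 43 genes in each line minus the gene's mean over the 13 lines, grouped by role; red is above and blue below the mean, and the colour scale ends at 1.5 either way. The GSC columns stand out for Psmb10, Psme1, Psme2, Psmd5, Psmb2 and Psmb4, and the fibroblast column for Psmd8, Psmc3ip and Psmg1.

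The fibroblast line was compared with the mean of the iPSC and gPSC groups. Of the 43 genes, 3 were higher (6.98%, against 21.1% of all genes) and 11 lower (25.6%, against 19.4%), and 6 passed the 2-fold mark as well (14.0%, against 25.6%). Psmd8 differed most, at 7.9985 in fibroblasts against 10.62 ± 0.15 in iPSC and 10.41 ± 0.04 in gPSC, which is -2.52 ± 0.14, or 5.73-fold lower (adjusted p = 3.84e-06). Psmc3ip was at 8.06, against 9.80 ± 0.18 in iPSC and 9.62 ± 0.22 in gPSC, or -1.65 ± 0.20 (adjusted p = 0.000275). Also 2-fold lower were Psme1 (-1.11 ± 0.31, adjusted p = 0.0189), the core chaperone Psmg1 (-1.07 ± 0.16, adjusted p = 0.000721) and Psme4 (-1.03 ± 0.17, adjusted p = 0.00152). Psmc6 was the only gene 2-fold higher, with 6.58 in fibroblasts against 5.45 to 5.72 in iPSC and 5.22 to 5.73 in gPSC, or 1.03 ± 0.18 (adjusted p = 0.00213). Its probe is dim, and without background correction the difference was 0.47, still called. The calls of the 6 genes past 2-fold held under every alternative and with any line left out.

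The remaining lower calls in fibroblasts were Psmd4, Psmd11, Psmb6, Psmb1, Psmb2 and Psme3ip1, between -0.34 and -0.59, and the remaining higher ones were Psmd6 (0.82) and Psmd5 (0.46). Of these 8, only Psmd4 kept its call under every alternative, and Psmb2, Psmb6, Psmd5 and Psmd6 also lost theirs when GSC 1 was left out. Psme2, the partner of Psme1, was not lower: it had 7.56 in fibroblasts and a difference of 0.18 (adjusted p = 0.494). Psmb8 and Psmb9 were detected on 0 of 2 fibroblast arrays, and Psmb10 differed by -0.34 with an interval of -1.77 to 1.10. Fibroblast and Fib-iPSC are 1 line each, so the pair was compared by value with no test. Of the 43 genes, 5 were 2-fold or more higher in Fib-iPSC than in fibroblast and 1 lower, where 30.5% of all genes differed by that much either way. Psmd8 had 10.47 in Fib-iPSC against 7.9985 in fibroblast, Psme1 had 10.16 against 8.66, and Psmc3ip had 9.55 against 8.06. Psmb10 had 9.33 against 8.01, Psmg1 had 9.39 against 8.16, and Psmc6, the lower gene, had 5.56 against 6.58. Between the Fib-iPSC and the ESC line, 0 of the 43 genes differed 2-fold, where 5.06% of all genes did.

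**Figure D5:**
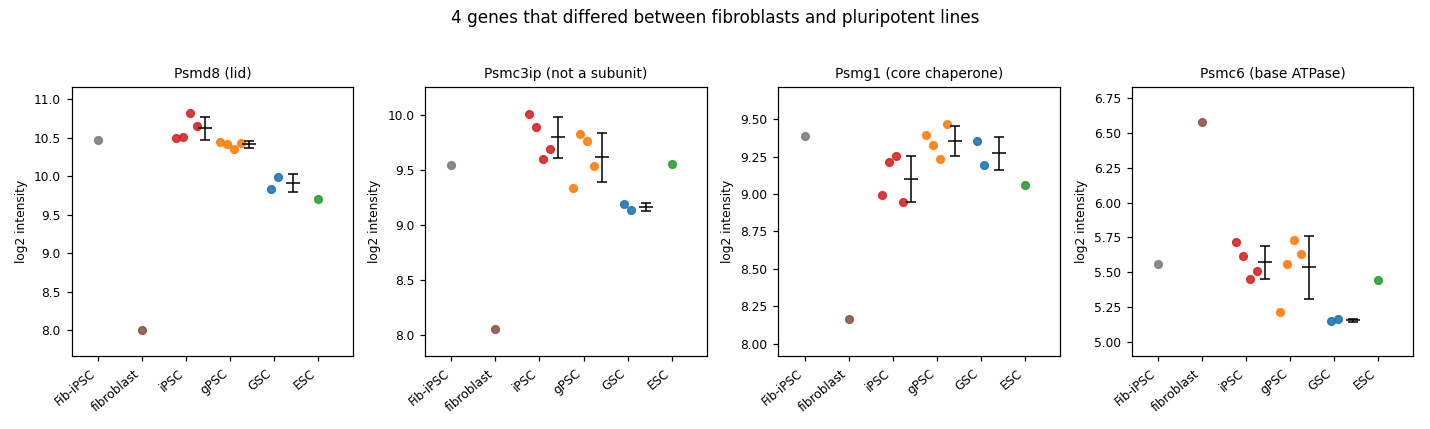
Log2 intensity of Psmd8, Psmc3ip, Psmg1 and Psmc6 in each line (points), with mean ± SD of groups of more than 1 line. The single fibroblast line lies below all other lines for the first 3 genes and above them for Psmc6, and the Fib-iPSC line lies among the iPSC and gPSC lines.

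For 16 of the genes, further probes allowed 18 pairs to be compared. In both GSC comparisons 17 of 18 pairs had the same sign, including all 6 pairs of called genes. The pair that disagreed was of Psmb7, with -0.09 (iPSC) and -0.15 (gPSC) from its main probe and 0.40 and 0.41 from the other. In fibroblasts 11 of 18 agreed in sign, and the called Psmd11 (-0.57) had a further probe at 0.18, so its direction there depends on the probe. The 2 probes of Psme1 gave -1.11 and -1.28 in fibroblasts.

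Genes that act beside the proteasome were taken from 4 lists. Of 16 antigen presentation and interferon response genes, 0 were higher and 9 lower in both iPSC and gPSC against GSC, with medians of -0.87 and -0.60. Of all genes, 19.5% were higher and 24.6% lower in iPSC, and 17.9% and 24.4% in gPSC. In each comparison 7 of the 16 were not called, and the difference was above 0 for 3 in iPSC and 5 in gPSC. Erap1, among the 16, was detected on 4 of 4 GSC arrays and on 0 arrays of every other group. It entered the test through GSC alone and could come out only as lower or not called, so it adds nothing to the count. H2-K1 was at 4.89 in iPSC and 5.16 in gPSC, against 5.07 in GSC, and B2m at 9.88 and 10.72, against 10.75. Irf8, a transcription factor of the interferon regulatory family, was at 4.52 ± 0.05 in iPSC and 4.71 ± 0.16 in gPSC, against 8.07 ± 0.16 in GSC (differences of -3.55 and -3.36, adjusted p = 1.97e-07 and 2.81e-07). Its probe was above background on 3 of the 8 arrays of iPSC lines and on 5 of the 8 of gPSC lines. With each array raised to at least its lowest detected signal, the differences were -3.44 and -3.30. Irf1, a second member of that family and an activator of immunoproteasome genes, was at 9.24 ± 0.41 and 9.53 ± 0.39, against 11.30 ± 0.20 in GSC, or -2.06 ± 0.30 and -1.77 ± 0.30 (adjusted p = 0.000496 and 0.00123). Tapbp, the tapasin that loads peptides onto MHC class I, differed by -1.88 ± 0.19 and -1.90 ± 0.19, and the kinase Jak2, which carries the interferon gamma signal, by -1.52 and -1.93. In fibroblasts against the iPSC and gPSC lines, 5 of the 16 were higher and 2 lower, where 21.1% and 19.4% of all genes were. Jak1 (1.72 ± 0.30), Ifngr1 (1.65 ± 0.21) and H2-D1 were among the higher ones. On the arrays of gPSC lines H2-D1 was detected in 2 of 8 cases, and on those of iPSC lines in 0 of 8, so its difference is a lower limit of 1.54, taken against the lowest detected signal.

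Of 9 receptors and accessory factors of the proteasome, 4 were higher and 1 lower in both comparisons with GSC, beside those same shares of all genes. Ubqln4, a shuttle that brings ubiquitinated proteins to the proteasome, was higher by 2.00 ± 0.14 in iPSC and 1.83 ± 0.14 in gPSC, and the shuttle Rad23b by 0.86 and 0.84. Ecpas, an adaptor that binds the proteasome, was lower by -1.67 ± 0.20 and -1.46 ± 0.20. Among 6 transcriptional regulators of proteasome genes, Nfyb, a subunit of the CCAAT-binding NF-Y, was higher (0.96 and 0.83). Nfe2l1, which induces proteasome genes when the proteasome is inhibited, was lower (-0.51 and -0.69), as was Vcp, the ATPase that releases it from the endoplasmic reticulum (-0.54 and -0.60). Of 5 ubiquitin genes and enzymes measured, 2 conjugating enzymes were higher, Ube2c (1.90 and 1.41) and Ube2d3 (1.54 and 1.80). Isg15, also on that list, was at 5.78 in iPSC and 7.33 in gPSC, against 6.91 in GSC, and was not called. In fibroblasts, against the iPSC and gPSC lines, Ecpas was higher (1.31) and Ubqln4 (-1.25), Nfyb (-1.34) and Ube2c (-0.99) were lower. None of these 4 lists had a called gene in the comparisons of iPSC with gPSC or of either with ESC.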

How the data were processed

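RNA from 13 lines was measured on 26 Illumina BeadChip arrays, 2 per line. The authors deposited probe intensity values that are not normalized, with a detection p-value for each probe, and a table of processed log2 values, quantile normalized per the values themselves. BeadStudio 3.2 and lumi are named in the submitters' processing notes, with no role given. Here the neqc function (limma 3.58.1, R 4.3.3) removed background, applied quantile normalization and took log2 after an offset of 16, which can shrink differences of dim probes, and the 2 arrays of a line were averaged. A probe was kept if its detection p was under 0.05 on the 2 arrays of any 1 line, and a gene was its brightest such probe, which left 10660 genes. All 13 lines entered 1 limma fit with a term per group (two-sided, Benjamini-Hochberg over all genes, 7 residual degrees of freedom), after the code was tested on simulated data. Groups of 1 line are assumed to vary like the rest. Precision is limited by how many arrays and lines there are. The level of 1 probe is not set against that of another.

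The members and the gene lists were chosen with earlier results of these data known. The text names the catalytic and immune subunits, the activators, Psmc3ip, every called member, the extremes of each class in iPSC against GSC, and the 3 furthest called genes of each related list. Line numbers are shared by the groups, but the main fit did not treat same-numbered lines as pairs. Deviations of same-numbered iPSC and gPSC lines correlated at -0.07, -0.07, 0.68 and -0.07. These values do not settle whether a shared number marks a pair. Alternatives were other normalizations, filters, probe rules, blocks, the b arrays alone and leaving out each line. Promoter windows are RefSeq's for GRCm38.p6; gene names come from the platform table.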

Additional observations from a re-analysis of the deposited data

Results flagged for a closer look

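In 8 of 86 groups of 4 lines (9.3%), 1 line stood further from the rest than Dixon's critical value for 4 samples allows; about 1 in 20 such groups would be picked by chance. Among the iPSC lines these were Psmc5 in iPSC 2 (10.57, with the nearest line at 9.90), Psmb7 in iPSC 4 (11.16, nearest 11.40), Psmd7 in iPSC 3 (10.35, nearest 10.81) and Psma7 in iPSC 1 (9.88, nearest 10.58). Among the gPSC lines they were Psmb7 in gPSC 1 (11.40, nearest 11.26), Psme3ip1 in gPSC 1 (8.69, nearest 8.63), Psma2 in gPSC 3 (12.48, nearest 12.60) and Psmd1 in gPSC 1 (7.41, nearest 7.68). gPSC 1, which had the highest summed fibroblast markers of the gPSC lines (70.5), accounts for 3 of the 4 gPSC values, and the part of other cells in them was not tested.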

How the results depend on the processing

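The number of called proteasome genes was recomputed under each alternative. Asking for a 2-fold difference as well left 4 genes in iPSC against GSC, 4 in gPSC against GSC, 4 in GSC against ESC and 6 in fibroblast against iPSC and gPSC. Leaving out each line in turn gave 11 to 22 calls in iPSC against GSC, 9 to 19 in gPSC against GSC, 8 to 14 in GSC against ESC and 10 to 16 in fibroblasts, the first 3 minima without GSC 1. In iPSC against ESC, 1 gene (Psmd8, higher) was called with log2 quantile normalization without background correction, 1 with neqc at offset 50, 1 with no detection filter and 1 with the mean of detected probes. GSC against ESC gave 8 on the b arrays, and fibroblasts gave 8 with the authors' processed values. The cause of these lower counts was not tested. When only the groups compared were fitted, GSC against ESC gave 23. With 1 ESC line, that fit takes its spread from the 2 GSC lines only, so the 23 calls are not relied on.

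With the array letter as a replicate block and the line as a random block (correlation 0.79 between the arrays of a line), 22 genes were called in iPSC and 18 in gPSC against GSC. With the line number as a replicate block there were 18 and 15, and 1 of 4 iPSC lines correlated best with the gPSC line of its own number. Of 64 called single-gene results, 48 were kept with the authors' values, 48 on the b arrays, 38 without GSC 1 and 48 without GSC 2. Over 2701 repeats, 144 calls were lost, 27 were gained and 0 turned direction. Probes near the lowest detected signal, such as those of Psmb8, set the limit of what could be seen.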
